A study of Mus musculus with 7 samples.

Results

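The 37 genes described here are cell cycle genes: components of DNA replication, mitosis and cytokinesis whose transcripts accumulate in dividing cells. They were named as a list, by gene symbol, and all 37 had a row in each of the 7 muscles' tables, out of 53083 genes shared by those tables. The RNA came from thin frozen slices cut along the tibialis anterior, the muscle at the front of the mouse's shin, and every slice (section) carried its own barcode. The labels place 2 muscles in a group called WT, 2 in a group called Ctr and 3 in a group called DMD, and the series title names Duchenne muscular dystrophy, the disease caused by loss of dystrophin. The labels give no strain, allele, age, sex or treatment for any group. The column names of the tables carry the words pax7 for WT, hDMD for Ctr and mdx for DMD, which the labels do not explain.

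Of 525 sections in the tables, 422 were used: 114 from WT, 116 from Ctr and 192 from DMD muscles. Over these sections the WT muscles had total counts of 23116888 and 18268732 and the Ctr muscles of 15575632 and 12224463. DMD replicates 1 to 3 had 41407203, 11181994 and 23341091. Levels are given as CPM (counts relative to the total of the library) scaled with TMM, a factor that corrects for differences in RNA composition, unless stated otherwise. Acta1, the actin of skeletal muscle fibres, was at 12290 to 25692 CPM in every muscle, as the tissue label says. Mitochondrially encoded genes took 41.6 and 45.9% of the counts in WT and 25.7 to 34.3% in Ctr and DMD. The WT tables had been counted with a different annotation, so group and annotation cannot be told apart in comparisons with WT. Nothing in the labels ties the muscles to different animals. P-values therefore describe the spread among these samples, which may in part be technical. DMD replicate 3 stood apart from the other DMD muscles: its 14 macrophage genes summed to 245 CPM, against 1254 and 1085 CPM in DMD replicates 1 and 2 and 77.2 to 121 CPM in the WT and Ctr muscles. Counts of genes are therefore also given without it.

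A cell that divides first copies its DNA in S phase and then separates the copies in mitosis. Transcription factors of the E2F family switch on the replication genes when cyclin-dependent kinases release them from proteins of the retinoblastoma family, and a later wave of transcription supplies cyclins, kinases, kinetochore and spindle proteins. Genes of the later wave often carry a CCAAT box and a cell cycle genes homology region (CHR) close to the start of transcription. Adult muscle fibres have left the cell cycle, and in dystrophic muscle the cells known to divide include satellite cells, macrophages and fibro-adipogenic progenitors.

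RefSeq promoters (GRCm38.p6), from 250 bases before to 50 bases after the start, were matched by symbol for 31 of the 37 genes and comprised 33 promoters. No entry was matched for Aurkb, Ccna2, Kif20a, Mcm4, Stmn1 and Tpx2. A CCAAT box (CCAAT on either strand) was found in 29 of the 33 promoters, or 87.9%, against 37.4% of 32851 promoters of the same length. The CHR sequence TTTGAA was found on either strand in 57.6% of them, against 17.9% of all promoters, and its variant TTTAAA in 27.3% against 13.2%. An E2F match, here TTTGGCGC, TTTCCCGC, TTTGCCGC or TTTCGCGC on either strand, was found in 15.2% against 2.26%. Of 9 replication genes, 4 held an E2F match and 3 held either CHR form, whereas of 22 other members 1 held an E2F match (Cdk1) and 20 held either CHR form. A match is a stretch of letters and not a measured binding site, and the motifs were searched separately, so matches may overlap.

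The following 6 promoter stretches, from 150 bases before to 20 bases from the start on, show both kinds of promoter. Prc1, Racgap1, Top2a and Cdk1 were called higher in DMD than in Ctr muscle, Mcm6 is a replication gene that was not called, and Ube2c is the member with lower values in DMD. Each is written 5′ to 3′ on the gene's own strand, with every CCAAT, CHR and E2F match in capitals.
Prc1 (chr7:80294301-80294470, plus strand): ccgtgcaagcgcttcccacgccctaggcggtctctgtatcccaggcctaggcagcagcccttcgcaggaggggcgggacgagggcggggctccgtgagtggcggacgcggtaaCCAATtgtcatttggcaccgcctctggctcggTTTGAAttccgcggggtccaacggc
Racgap1 (chr15:99651637-99651806, minus strand): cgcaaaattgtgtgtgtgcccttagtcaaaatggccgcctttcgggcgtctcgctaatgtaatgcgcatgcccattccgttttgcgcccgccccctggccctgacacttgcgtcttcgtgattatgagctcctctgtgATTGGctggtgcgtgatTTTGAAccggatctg
Top2a (chr11:99024170-99024339, minus strand): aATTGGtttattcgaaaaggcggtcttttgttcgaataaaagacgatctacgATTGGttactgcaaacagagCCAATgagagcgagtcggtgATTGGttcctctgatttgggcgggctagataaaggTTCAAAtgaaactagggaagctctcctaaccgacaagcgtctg
Cdk1 (chr10:69352893-69353062, minus strand): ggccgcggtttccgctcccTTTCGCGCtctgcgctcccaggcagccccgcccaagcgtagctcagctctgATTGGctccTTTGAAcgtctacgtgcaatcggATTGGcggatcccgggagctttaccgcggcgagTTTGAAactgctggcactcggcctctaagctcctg
Mcm6 (chr1:128359686-128359855, minus strand): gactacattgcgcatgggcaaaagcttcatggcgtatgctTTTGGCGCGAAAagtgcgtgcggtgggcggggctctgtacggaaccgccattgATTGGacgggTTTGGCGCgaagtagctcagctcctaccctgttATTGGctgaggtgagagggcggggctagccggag
Ube2c (chr2:164769779-164769948, plus strand): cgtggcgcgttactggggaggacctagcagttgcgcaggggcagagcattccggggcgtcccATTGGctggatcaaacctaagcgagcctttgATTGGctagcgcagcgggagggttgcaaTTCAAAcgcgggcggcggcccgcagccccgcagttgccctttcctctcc
Prc1 had 2 promoters, with different starts. In the one printed, the CCAAT match lay 37 bases and the CHR match 5 bases before the start. From the other start the same matches lay 62 and 30 bases before. In Racgap1 the CCAAT match lay 12 bases before and the CHR match 5 bases after the start. Mcm6 held 3 E2F matches, of which those 110 and 106 bases before the start overlap, and no CHR match in the window searched. Ube2c, whose values were lower in DMD than in Ctr, held CCAAT and CHR matches as well.

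Summed over the 37 genes, the TMM-scaled level was alike in the non-dystrophic muscles and far apart among the DMD muscles. The sum was 91.7 and 87.4 CPM in WT. In Ctr it was 92.8 and 96.0 CPM, and in DMD replicates 1, 2 and 3 it was 238, 151 and 63.1 CPM. DMD replicates 1 and 2 thus lay above every other muscle and DMD replicate 3 lay below every other muscle. Without TMM scaling the sums were 73.6 and 58.4 CPM in WT, 96.6 and 92.2 CPM in Ctr, and 335, 202 and 62.0 CPM in DMD. On that scale, compared after the values were seen, the WT muscles were below the Ctr muscles, and DMD replicate 3 lay between the WT muscles. In WT and Ctr the sum came mostly from 5 genes (Ube2c, Aurka, Pcna, Tpx2 and Rrm1), the members with a mean of at least 5 CPM over those 4 muscles, a set chosen after the values were seen. They took 81.4 to 82.3% of the sum in WT and Ctr and 37.4, 44.1 and 64.0% in DMD replicates 1 to 3. The other 32 genes summed to 16.3 ± 0.415 CPM in WT (SD, n = 2), 17.2 ± 0.173 CPM in Ctr (SD, n = 2) and 85.3 ± 63.1 CPM in DMD (SD, n = 3). Muscle by muscle, they summed to 16.6 and 16.1 CPM in WT, 17.3 and 17.0 CPM in Ctr, and 149, 84.1 and 22.8 CPM in DMD, so that all 3 DMD muscles lay above all 4 others. Without TMM scaling they summed to 13.4 and 10.7 CPM in WT, 17.98 and 16.4 CPM in Ctr, and 210, 113 and 22.4 CPM in DMD, with DMD again above. In sections of whole muscle, more dividing cells and more of these RNAs per cell cannot be told apart.

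**Figure D1:**
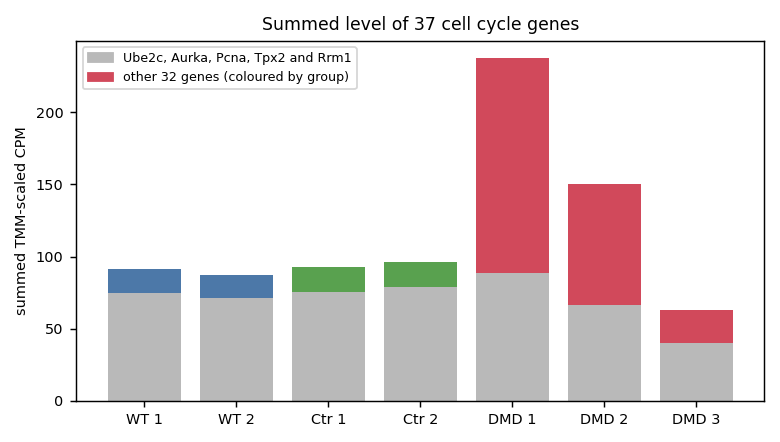
Bars give the TMM-scaled CPM summed over the 37 cell cycle genes in each of the 7 muscles, split into 5 genes (Ube2c, Aurka, Pcna, Tpx2 and Rrm1, grey) and the other 32 (coloured by group). The coloured part is 16.1 to 17.3 CPM in the 4 WT and Ctr muscles and 149, 84.1 and 22.8 CPM in DMD replicates 1, 2 and 3, while the grey part is lowest in DMD replicate 3.

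The first comparison, DMD against Ctr, asks which of these genes differ between dystrophic muscle and the control group. In DMD, 8 of the 37 genes rose and 0 fell (edgeR quasi-likelihood test, Benjamini-Hochberg adjustment over 13746 genes): Rrm2, Cdk1, Bub1b, Stmn1, Prc1, Racgap1, Mki67 and Top2a. Of all genes tested, 12.7% were called in either direction, 7.17% higher and 5.49% lower. The 8 genes come from nucleotide supply, mitotic entry, the spindle checkpoint, microtubule control, cytokinesis and chromosome structure. Of the 37, 34 passed the filter on low counts. A gene that passed only through its counts in DMD had to differ, so no share of the genes tested is read as a result. Fitted without that filter, all 37 genes had a median log2 difference of 3.20, or 3.10 with the 2 genes that had 0 counts in Ctr set at their bound, against 0.25 over all genes in that fit. In that fit 36 of the 37 differences were above 0. The values of 20 members did not overlap between the groups and were higher in DMD, and those of 1 member, Ube2c, did not overlap and were lower. Over all genes tested, 23.8% did not overlap and were higher, and 22.2% did not overlap and were lower.

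**Figure D2:**
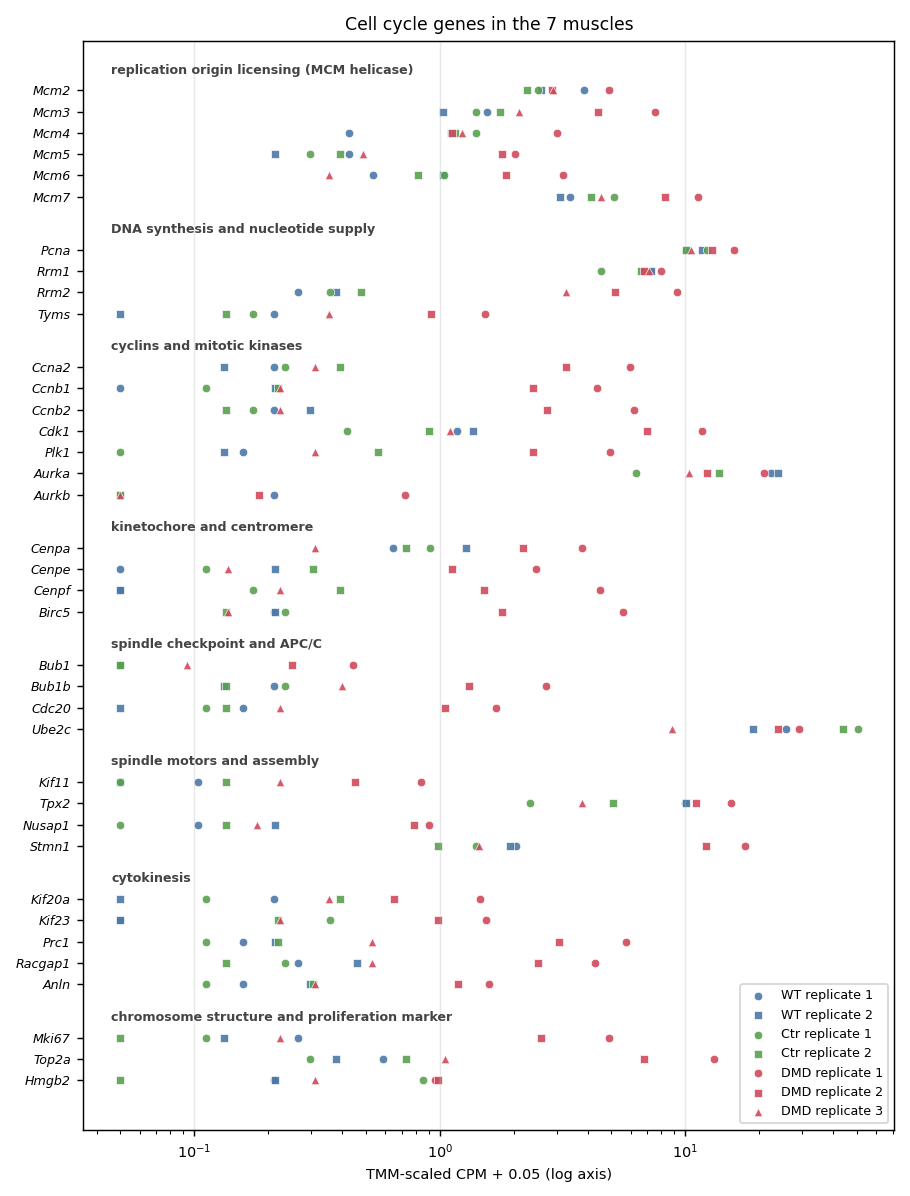
Each row is 1 of the 37 cell cycle genes, grouped by role, and each point is 1 muscle. The x axis is TMM-scaled CPM plus 0.05 on a log scale, with colour for the group and shape for the replicate. For most genes of the cell division roles, DMD replicates 1 and 2 lie to the right of all other muscles and DMD replicate 3 (triangles) lies nearer to the WT and Ctr muscles. Ube2c and Aurka do not show that order.

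Replication origin licensing was represented by Mcm2 to Mcm7, the 6 subunits of the ring helicase that opens DNA at origins. None of the 6 passed the test, and their log2 differences ran from 0.55 (Mcm4) to 2.26 (Mcm5). Mcm7, the subunit with the highest mean level, was at 3.34 and 3.03 CPM in WT, 5.06 and 4.09 CPM in Ctr, and 11.2, 8.22 and 4.49 CPM in DMD. Its Ctr and DMD values overlapped through DMD replicate 3, and the log2 difference was 0.81 (SE 0.36, adjusted p = 0.155 by edgeR). Reads on Mcm7 can be shared with the microRNA genes that lie within it on the same strand. Mcm3 was at 1.36 and 1.70 CPM in Ctr and 7.46, 4.34 and 2.05 CPM in DMD. For Mcm3 the groups did not overlap, but the log2 difference of 1.63 (SE 0.52) had an adjusted p of 0.0638 by edgeR.

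Among the 4 genes of DNA synthesis and nucleotide supply, Rrm2 stood out and its partner Rrm1 did not. Rrm2 and Rrm1 encode the small and large subunits of ribonucleotide reductase, the enzyme that makes deoxynucleotides, and Rrm2 is the subunit whose amount follows S phase. Rrm2 was at 0.215 and 0.328 CPM in WT, 0.308 and 0.426 CPM in Ctr, and 9.19, 5.15 and 3.23 CPM in DMD. All 3 DMD muscles were far above all others, and the log2 difference from Ctr was 4.02 (SE 0.57, adjusted p = 0.00621 by edgeR). Rrm1 was at 4.50 and 6.56 CPM in Ctr and 7.93, 6.75 and 7.06 CPM in DMD. These values did not overlap, yet the log2 difference was only 0.40 (SE 0.23, adjusted p = 0.260 by edgeR). Pcna, the sliding clamp of DNA polymerase, had a log2 difference of 0.22 (SE 0.23, adjusted p = 0.546 by edgeR), and 48.6% of its nonzero values were fractions, which come from reads divided between genes or positions. Tyms, thymidylate synthase, had 3 counts in Ctr and 106 in DMD, a ratio of 10.3 with a 95% counting interval of 3.42 to 50.6, and did not pass the test.

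The cyclins and mitotic kinases comprised 7 genes, of which Cdk1 rose. Cdk1, the kinase that drives entry into mitosis, was at 1.13 and 1.31 CPM in WT, 0.370 and 0.851 CPM in Ctr, and 11.6, 6.95 and 1.05 CPM in DMD. DMD replicate 3 lay just above the Ctr muscles and below both WT muscles. The log2 difference from Ctr was 3.49 (SE 0.92, adjusted p = 0.0383 by edgeR), and 71.6% of the nonzero Cdk1 values were fractions of shared reads. The cyclins that pair with Cdk1 had differences of similar size that did not pass: 3.63 for Ccna2, 4.37 for Ccnb1 and 4.79 for Ccnb2 on the log2 scale, with adjusted p-values of 0.0625, 0.0624 and 0.0516 by edgeR. Ccnb2 had 3 counts in Ctr against 403 in DMD, a ratio of 39.0 (95% counting interval 13.3 to 190). Plk1, polo-like kinase, was at 0 and 0.511 CPM in Ctr and 4.87, 2.34 and 0.262 CPM in DMD, so its groups overlapped. Aurka, Aurora kinase A of the spindle poles, behaved differently from the others: it was highest in WT, at 22.2 and 23.8 CPM, and was at 6.23 and 13.6 CPM in Ctr and 20.8, 12.2 and 10.3 CPM in DMD. Aurkb, Aurora kinase B of the chromosomal passenger complex, had 0 counts in Ctr and 41 in DMD, which makes it at least 3.97-fold higher if Ctr is given a floor of 3 counts in all. It did not pass the filter.

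None of the 4 kinetochore and centromere genes passed the test. Cenpa, the histone H3 variant that marks centromeres and the member of this role with the highest mean level, was at 0.592 and 1.23 CPM in WT, 0.864 and 0.681 CPM in Ctr, and 3.74, 2.14 and 0.262 CPM in DMD. DMD replicate 3 was below all 4 WT and Ctr muscles, and the log2 difference was 1.43 (SE 0.85, adjusted p = 0.278 by edgeR). Birc5 (survivin, of the chromosomal passenger complex) was at 5.52, 1.74 and 0.0872 CPM in DMD and 0.185 and 0.0851 CPM in Ctr. For this gene DMD replicate 3 lay between the Ctr muscles. The Birc5 log2 difference of 4.13 (SE 1.43) had an adjusted p of 0.0825 by edgeR. Cenpf and Cenpe, large proteins of the outer kinetochore, had log2 differences of 3.26 and 3.07 that did not pass either.

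In the spindle checkpoint and anaphase-promoting complex group, Bub1b rose, and Ube2c was the member with the opposite sign. Bub1b (BubR1, which holds back anaphase until chromosomes attach) was at 0.162 and 0.0819 CPM in WT, 0.185 and 0.0851 CPM in Ctr, and 2.66, 1.27 and 0.349 CPM in DMD. All 3 DMD muscles were above the others, with a log2 difference from Ctr of 3.35 (SE 0.97, adjusted p = 0.0495 by edgeR) on 4 counts in Ctr. Ube2c, the ubiquitin-conjugating enzyme that works with the anaphase-promoting complex, was at 25.6 and 18.8 CPM in WT, 50.3 and 43.7 CPM in Ctr, and 29.1, 23.8 and 8.81 CPM in DMD. Both Ctr muscles were above all 5 others, and the log2 difference was -1.19 (SE 0.40, adjusted p = 0.0749 by edgeR), so the lower value did not pass. Cdc20, the activator of the complex, had 2 counts in Ctr and 115 in DMD, a ratio of 16.7 (95% counting interval 4.52 to 140). Bub1, a checkpoint kinase, had 0 counts in Ctr and 27 in DMD, at least 2.62-fold higher, and did not pass the filter.

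Among the 4 genes of spindle motors and assembly, Stmn1 rose. Stmn1 (stathmin, which destabilises microtubules and is also made by cells other than dividing ones) was at 1.99 and 1.88 CPM in WT, 1.36 and 0.937 CPM in Ctr, and 17.5, 12.1 and 1.40 CPM in DMD. DMD replicate 3 lay only just above Ctr replicate 1 and below both WT muscles. The log2 difference from Ctr was 3.15 (SE 0.88, adjusted p = 0.0444 by edgeR), and 60.3% of the nonzero values were fractions of shared reads. Tpx2, which activates Aurora kinase A on spindle microtubules, was at 9.96 and 9.99 CPM in WT, 2.28 and 5.02 CPM in Ctr, and 15.2, 11.0 and 3.75 CPM in DMD. Its groups overlapped, and the log2 difference of 1.49 (SE 0.54) had an adjusted p of 0.0946 by edgeR. Kif11, the motor that pushes spindle poles apart, and Nusap1, a spindle-associated protein, each had 1 count in Ctr, against 56 and 64 in DMD.

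Of the 5 genes of cytokinesis, Prc1 and Racgap1 rose. Prc1 bundles microtubules in the spindle midzone, and Racgap1 (a subunit of centralspindlin) directs the contractile ring. Prc1 was at 0.108 and 0.164 CPM in WT, 0.0617 and 0.170 CPM in Ctr, and 5.71, 3.01 and 0.480 CPM in DMD. All 3 DMD muscles were above all others, with a log2 difference from Ctr of 4.79 (SE 1.16, adjusted p = 0.0304 by edgeR). With 3 counts in Ctr and 389 in DMD the ratio was 37.7 (95% counting interval 12.8 to 184). Racgap1 was at 0.215 and 0.410 CPM in WT, 0.185 and 0.0851 CPM in Ctr, and 4.24, 2.47 and 0.480 CPM in DMD, again without overlap. Its log2 difference was 4.06 (SE 1.02, adjusted p = 0.0328 by edgeR). Kif23, the partner of Racgap1 in centralspindlin, had a log2 difference of 1.85 (SE 0.91, adjusted p = 0.202 by edgeR). The log2 differences of Kif20a and Anln were 2.14 and 2.75, with adjusted p-values of 0.161 and 0.0782 by edgeR.

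Of the remaining 3 genes, Mki67 and Top2a rose. Mki67 encodes Ki-67, a coat protein of mitotic chromosomes used as a marker of dividing cells. Mki67 was at 0.215 and 0.0819 CPM in WT, 0.0617 and 0 CPM in Ctr, and 4.85, 2.54 and 0.174 CPM in DMD. DMD replicate 3 was above both Ctr muscles but between the WT muscles. The log2 difference from Ctr was 5.99 (SE 1.63, adjusted p = 0.0413 by edgeR). It rests on 1 count in Ctr against 325 in DMD, a ratio of 94.5 with a 95% counting interval of 16.8 to 3742. Top2a, the topoisomerase that untangles sister chromatids, was at 0.539 and 0.328 CPM in WT, 0.247 and 0.681 CPM in Ctr, and 13.1, 6.75 and 1.0 CPM in DMD. All 3 DMD muscles were above all others, and the log2 difference from Ctr was 3.99 (SE 1.03, adjusted p = 0.0352 by edgeR). Top2a overlaps the gene model Gm23451 on the same strand. Hmgb2, a chromatin protein with 74.1% fractional values, had a log2 difference of 0.68 (SE 0.87, adjusted p = 0.631 by edgeR).

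The call on these genes rested on which muscles were in the fit. Without DMD replicate 3, 27 of the 37 genes were called higher and Ube2c was called lower, in a fit that called 25.3% of all genes. Without DMD replicate 1 or without DMD replicate 2, Rrm2 was the 1 member called, in fits that called 4.53% and 5.76% of all genes. Only 16 and 17 of the 37 genes then passed the filter on low counts, with 4 of the 8 called genes among them in each fit. Rrm2 was also the 1 member called in a fit of the 2 groups alone, which called 5.12% of all genes. Without Ctr replicate 1 the lowest log2 difference of the 8 genes was 2.95, and without Ctr replicate 2 it was 2.92. With 1 Ctr muscle left, that muscle was assumed to vary like the other groups, so calls from these fits are not read as a result. DESeq2 on all 7 muscles called 15 members higher, and Ube2c lower, in a fit that called 6.94% of 26383 genes.

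**Figure D3:**
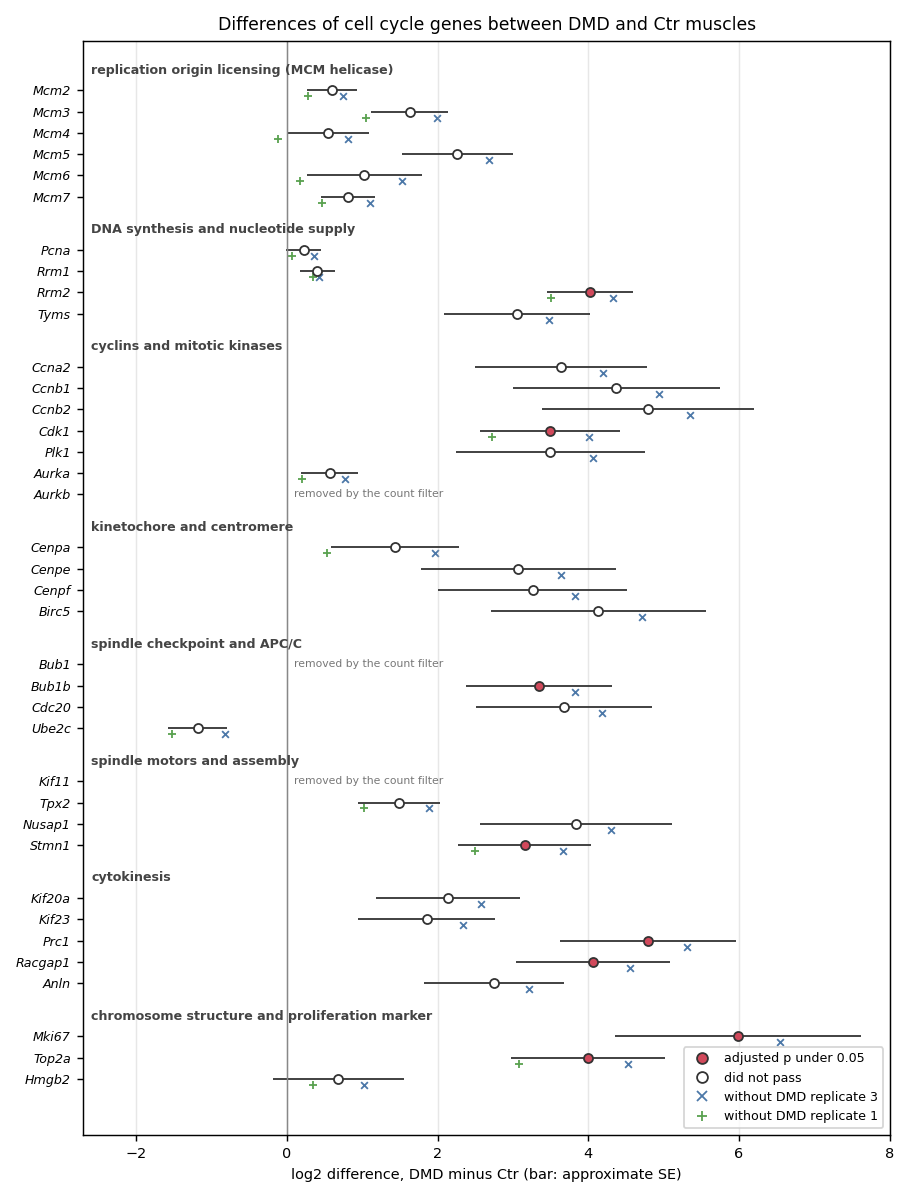
Points are the log2 differences, DMD minus Ctr, of the 37 genes from the fit over all 7 muscles, with bars of 1 approximate SE. Filled points are the 8 genes at an adjusted p under 0.05. Crosses show the value without DMD replicate 3 and plus signs the value without DMD replicate 1, where the gene then passed the filter. Crosses lie to the right of the points throughout, and plus signs to the left, with Mcm4 at -0.12.

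Against WT, 11 of the 37 genes rose in DMD and 0 fell: Mcm3, Mcm7, Rrm2, Ccna2, Ccnb1, Cenpf, Bub1b, Kif23, Prc1, Racgap1 and Top2a (edgeR). Of all genes tested, 15.2% were called, 8.25% higher and 6.92% lower. This comparison uses the same DMD muscles as the one with Ctr, so their values stand side by side and are not independent. The licensing subunits Mcm3 and Mcm7 rose here, with log2 differences of 1.88 (SE 0.52, adjusted p = 0.0393 by edgeR) and 1.33 (SE 0.37, adjusted p = 0.0392 by edgeR). Rrm2 again had a log2 difference above 4, at 4.47 (SE 0.59, adjusted p = 0.00385 by edgeR). Top2a, Bub1b, Prc1 and Racgap1 had log2 differences of 3.96, 3.48, 4.53 and 3.02. Kif23 had 0 counts in WT and 105 in DMD. Cenpf had 0 counts in WT and 285 in DMD and was at least 30.4-fold higher if WT is given a floor of 3 counts in all. The values of 21 members did not overlap and were higher in DMD, and those of 1 member, Aurka, did not overlap and were lower. Over all genes, 26.7% did not overlap and were higher, and 24.2% did not overlap and were lower. The Aurka difference of -0.66 on the log2 scale (SE 0.35) did not pass, with an adjusted p of 0.223 by edgeR. Without WT replicate 1 the lowest log2 difference of the 11 genes was 1.41, and without WT replicate 2 it was 1.26. With 1 WT muscle left, calls are not read as a result. Without DMD replicate 1 or 2 the 1 member called was Rrm2, and without DMD replicate 3 there were 26. Those fits called 6.95%, 8.10% and 26.5% of all genes, in that order. Without DMD replicate 1 or 2 only 16 and 17 members passed the filter on low counts, with 4 of the 11 called genes among them. A fit of the 2 groups alone called 6 members and 13.6% of all genes.

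Between the 2 non-dystrophic groups none of the 37 genes was called by edgeR, and 0.364% of all genes were called (0.196% higher and 0.167% lower in Ctr). At an unadjusted p under 0.05 by edgeR were 3 of 34 members tested, against 2481 of 13746 genes. These 3 are therefore not read as a result. DESeq2 called 1 member, Aurka, lower in Ctr. The values of 6 members did not overlap and were higher in Ctr and those of 9 did not overlap and were lower, against 27.8% and 27.2% of all genes tested. The 3 at an unadjusted p under 0.05 by edgeR were Ube2c, Aurka and Tpx2, all among the 5 members with the highest levels in these muscles. Ube2c was higher in Ctr by 1.08 on the log2 scale (SE 0.45, adjusted p = 0.245 by edgeR). Aurka and Tpx2, which act together at the spindle, had log2 differences of -1.22 (SE 0.41, adjusted p = 0.169 by edgeR) and -1.47 (SE 0.58, adjusted p = 0.222 by edgeR). The median log2 difference of all 37 genes, fitted without the filter on low counts, was 0.05, against 0 over all genes.

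The 3 DMD muscles fell in 1 order for nearly all members. DMD replicate 1 exceeded all 4 WT and Ctr muscles in 35 of the 37 genes, DMD replicate 2 in 31 and DMD replicate 3 in 13. Of all genes tested, 31.7%, 31.3% and 26.1% lay above all 4 in the same muscles. Without TMM scaling the members' counts were 36, 35 and 17, against 64.9%, 61.4% and 32.1% of all genes tested. DMD replicate 3 was below all 4 in Mcm6, Cenpa and Ube2c. The order from DMD replicate 1 through 2 to 3 held in 33 of the 37 genes, and in 21.6% of all genes tested. This order was noticed after the values were seen. The summed macrophage genes were in the same order, at 1254, 1085 and 245 CPM, whereas 10 genes of regenerating fibres (such as Tnnt2 and Actc1) were lowest in DMD replicate 1 and highest in DMD replicate 2. Their part in the order was not tested.

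Along the muscle, the level of the cell cycle genes spanned the widest range in DMD replicate 1. In DMD replicates 2 and 3 the highest and lowest blocks of sections also differed beyond counting error for 32 of the genes. For all 37 genes that held in DMD replicate 2 but not in DMD replicate 3. Sections were ordered by the barcode number in their column names, and the labels do not say which end of the muscle comes first. Neighbours in this order were more alike than other pairs: the mean correlation of their most variable genes was 0.10 to 0.416 in the 7 muscles, against -0.0138 to -0.0072 over all pairs of sections. Values along the order are CPM of the section total, without TMM scaling. In DMD replicate 1 the 32 genes other than Ube2c, Aurka, Pcna, Tpx2 and Rrm1 summed to 80.2, 153, 163, 204 and 512 CPM over 5 consecutive blocks of equal numbers of sections. The 95% counting interval was 73.6 to 87.1 CPM for the first block and 495 to 530 CPM for the last, so the level at one end was several times that at the other. In DMD replicate 2 the blocks were at 120, 101.7, 133, 120 and 83.9 CPM, with the lowest block last. The 95% counting intervals of its highest and lowest blocks were 119 to 149 CPM and 71.4 to 98.0 CPM. In DMD replicate 3 they were at 19.3, 21.2, 28.2, 22.5 and 17.9 CPM, with intervals of 23.9 to 33.02 CPM for the highest and 13.3 to 23.6 CPM for the lowest. In the WT and Ctr muscles the blocks ran from 6.12 to 20.1 CPM, below those of DMD replicates 1 and 2 throughout, and within each of these muscles the intervals of the highest and lowest blocks overlapped. Over all 37 genes, the blocks of Ctr replicate 1 ran from 70.6 CPM (60.9 to 81.5) to 118 CPM (105 to 132). Those of WT replicate 2 ran from 49.3 CPM (43.6 to 55.6) to 69.5 CPM (57.2 to 83.6). Those of DMD replicate 2 ran from 168 CPM (150 to 187) to 221 CPM (203 to 241). In these muscles the intervals did not overlap. In DMD replicate 3 they did, at 58.2 CPM (49.6 to 67.9) and 68.8 CPM (62.0 to 76.2).

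**Figure D4:**
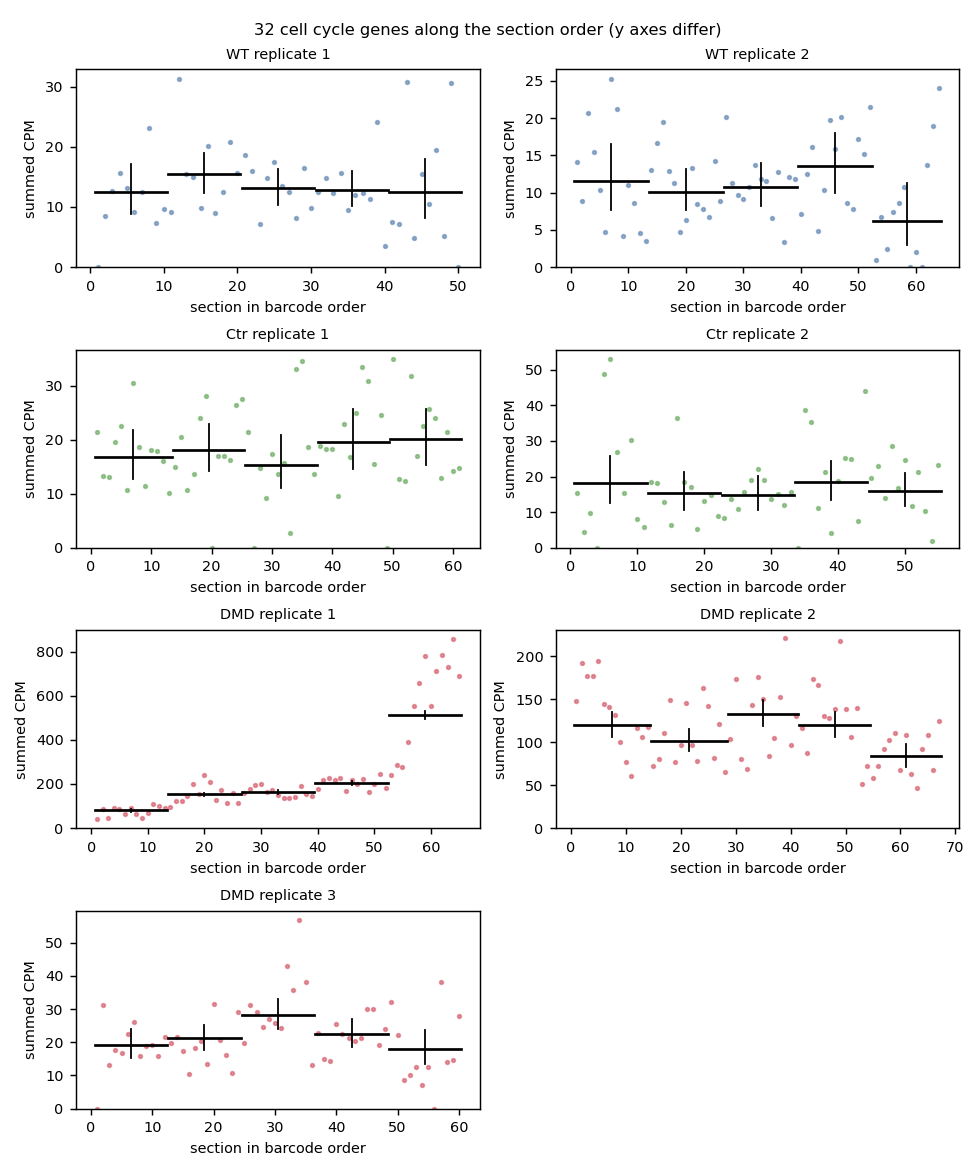
Each point is the summed CPM of 32 cell cycle genes in 1 section, in barcode order, with 1 panel per muscle and a separate y axis in each. Horizontal lines are the pooled CPM of 5 consecutive blocks of sections, and vertical lines their 95% counting intervals. DMD replicate 1 climbs from 80.2 CPM in the first block to 512 CPM in the last, DMD replicate 2 lies between 83.9 and 133 CPM and DMD replicate 3 between 17.9 and 28.2 CPM.

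In single sections the 32 genes summed to 40.5 to 857 CPM in DMD replicate 1, 46.2 to 222 CPM in DMD replicate 2 and 0 to 56.8 CPM in DMD replicate 3. The median section held 116, 17.1 and 7.5 counts of them in these muscles and 2.54 to 5.77 counts in the WT and Ctr muscles, so single sections of the latter could show no pattern at this depth. Over all 37 genes, the section highest in DMD replicate 1 was number 64 of 65, at 1148 CPM. The variance of the sections of DMD replicate 1 around their common level was 87.0 times that of counting error. This ratio was 1.85 in DMD replicate 2, 1.19 in DMD replicate 3 and 1.13 to 3.16 in the WT and Ctr muscles. It grows with the counts per section, whose medians over all 37 genes were 196, 32.8 and 23.25 in DMD replicates 1 to 3, so its size is not comparable between muscles. The 20% of sections with the highest sum held 34.4% of the members' counts in DMD replicate 1 and 15.8% of all counts. In the other muscles these shares were 17.4 to 25.8% and 13.0 to 19.8%. The first share had to be the larger, because sections were ranked by the members' own level.

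Sections of DMD muscle rich in macrophage genes were compared with the remaining sections of the same muscle, to see whether the cell cycle genes lie with the infiltrate. Rich sections were the 20% with the highest mean score over 14 macrophage genes (among them Lyz2, lysozyme, and C1qb, of complement), none of them a member of the cell cycle list. In these sections 3 of the 37 genes rose: Plk1, Birc5 and Top2a (edgeR, with the muscle as block). Only 0.164% of the 12205 genes tested were called, 0.147% higher and 0.0164% lower. CPM of regions were scaled with TMM factors from the region sums of the DMD muscles alone. They are therefore not comparable with the whole-muscle levels given above. Top2a was at 33.8 CPM in the rich and 12.3 CPM in the remaining sections of DMD replicate 1, at 13.0 and 7.69 CPM in DMD replicate 2, and at 1.94 and 1.11 CPM in DMD replicate 3. It was higher in the rich sections of every DMD muscle, by 1.20 on the log2 scale (SE 0.21, adjusted p = 0.0482 by edgeR). Plk1 was at 14.2 and 4.21 CPM, 4.17 and 2.73 CPM, and 0.970 and 0.222 CPM in the same order, a log2 difference of 1.53 (SE 0.28, adjusted p = 0.0482 by edgeR). Birc5 was at 14.6 and 5.12 CPM, 3.64 and 1.92 CPM, and 0.242 and 0.0740 CPM, a log2 difference of 1.40 (SE 0.26, adjusted p = 0.0491 by edgeR). In all 3 muscles 15 of the 37 genes were higher in the rich sections, Cdk1, Stmn1, Mki67 and Racgap1 among them. Of all genes tested, 14.8% were. In DMD replicate 3 some of these differences rest on a few counts: Birc5 had 2 in the whole muscle, Mki67 4 and Plk1 6.

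The size of that difference varied with the muscle. On the scale of the region fit, the 37 genes summed to 517 CPM in the rich and 247 CPM in the remaining sections of DMD replicate 1. That is a ratio of 2.09. The ratio was 1.27 in DMD replicate 2, from 233 and 183 CPM, and 1.01 in DMD replicate 3, from 82.7 and 81.9 CPM. For the 32 genes alone the ratios were 2.48, 1.36 and 1.12. Without DMD replicate 1, edgeR called 0 members. At an unadjusted p under 0.05 it then had 1 of 26 members tested, against 731 of 11125 genes. Without DMD replicate 2 or 3 it called 11 and 17. These fits called 0.0449%, 0.845% and 1.76% of all genes, in that order. DESeq2 called 0 members and 0.0244% of all genes. By DESeq2, 12 of the 37 were at an unadjusted p under 0.05, against 338 of 24618 genes. With the highest 10% or 33% of sections in place of 20%, edgeR called 9 and 12 members, and 0.508% and 1.52% of all genes.

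Across single sections the summed 37 genes and the macrophage score had a Spearman correlation of 0.96 over 65 sections of DMD replicate 1, 0.50 over 67 sections of DMD replicate 2 and 0.15 over 60 sections of DMD replicate 3. It was between -0.10 and 0.01 in the WT and Ctr muscles. These are descriptions, since sections of 1 muscle share their library preparation and their position along the muscle. The correlation with the total count of the section was -0.14, -0.18 and 0.12 in the DMD muscles. In DMD replicate 1 other scores went with the members' sum too. The correlation was 0.81 with the regenerating fibre score, 0.72 with the satellite cell score, 0.72 with the fibro-adipogenic progenitor score and 0.30 with the lymphocyte score, while it was -0.14 with the endothelial score. In DMD replicate 2 these were -0.07, 0.02, 0.14, -0.09 and -0.02, all lower than the 0.50 with the macrophage score. In DMD replicate 3 the order differed: the correlation was 0.26 with the fibro-adipogenic progenitor score and 0.23 with the endothelial score, both above the 0.15 with the macrophage score. There it was 0.15 with the satellite cell score, -0.03 with the regenerating fibre score and 0.00 with the lymphocyte score. For the 32 genes alone, DMD replicate 3 had 0.40 with the fibro-adipogenic progenitor score, 0.31 with the endothelial score and 0.29 with the macrophage score. Of 2468 genes outside the list with at least 20 CPM in every DMD muscle, those most like the members' sum by the mean Spearman correlation over the 3 DMD muscles were Actb (0.54), Grn (0.52), Vim (0.52), Psap (0.52) and H2-Ab1 (0.51).

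**Figure D5:**
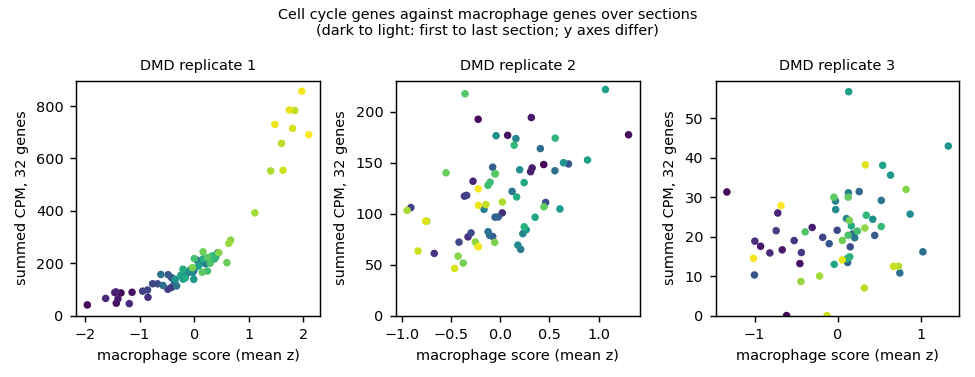
Each point is 1 section of a DMD muscle. The x axis is the macrophage score, a mean z-score of log2 CPM over 14 genes, and the y axis is the summed CPM of 32 cell cycle genes, with colour from the first (dark) to the last section (light). In DMD replicate 1 both climb together towards the last sections (Spearman 0.96), and in DMD replicates 2 and 3 the points are looser, at 0.48 and 0.29.

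Sections rich in regenerating fibre genes, chosen in the same way from 10 genes such as Tnnt2 (cardiac troponin T) and Actc1 (cardiac actin), gave no called member. EdgeR called 0 of the 37, against 0.0659% of 12134 genes, and DESeq2 called 0. At an unadjusted p under 0.05 by edgeR were 23 of 33 members tested, against 959 of the 12134 genes. The members' sum was 2.03 times that of the remaining sections in DMD replicate 1, but 0.912 times in DMD replicate 2 and 0.897 times in DMD replicate 3. In DMD replicate 1, 10 of the 13 sections rich in regenerating fibre genes were also rich in macrophage genes, so the 2 cannot be told apart there. In DMD replicate 2 that held for 2 of 13 sections. Without DMD replicate 2, edgeR called 15 members, and without DMD replicate 3 it called Kif20a. These fits called 1.44% and 0.382% of all genes. Middle sections against those nearer both ends of the order, in 3 blocks of equal size, gave 0 called members by edgeR and DESeq2. EdgeR called 0.275% of 13079 genes there. At an unadjusted p under 0.05 by edgeR were 3 of 35 members tested, against 591 of the 13079 genes. Ratios of the sums were 0.785, 1.18 and 1.01 in DMD replicates 1 to 3.

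Other genes of the cell cycle were followed by 3 lists that hold no member. Of 13 genes that control cell cycle transcription, 11 were tested in DMD against Ctr, and E2f2 rose while E2f3 and Rbl2 fell. E2f2, an activating E2F, was at 1.05 and 2.98 CPM in Ctr and 5.47, 8.02 and 4.10 CPM in DMD, a log2 difference of 1.57 (SE 0.45, adjusted p = 0.0496 by edgeR). Rbl2, the p130 protein that represses cell cycle genes in resting cells, was at 36.6 and 26.1 CPM in Ctr and 15.3, 15.0 and 14.2 CPM in DMD, and fell by 1.08 on the log2 scale (SE 0.20, adjusted p = 0.0145 by edgeR). All 3 DMD muscles had nearly the same Rbl2 level, unlike the summed level of the members. E2f3, also counted among the activating E2Fs, was at 4.87 and 3.24 CPM in Ctr and 1.36, 1.604 and 1.09 CPM in DMD. It fell by 1.6 (SE 0.30, adjusted p = 0.0145 by edgeR).

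Of 33 further genes of S-phase entry and replication, 26 were tested, 4 rose (Pola1, Prim1, Lig1 and Dnmt1) and 1 fell (Gmnn). Lig1, the ligase that joins Okazaki fragments, was at 0.308 and 0.511 CPM in Ctr and 5.82, 4.14 and 0.872 CPM in DMD, a log2 difference of 3.18 (SE 0.80, adjusted p = 0.0326 by edgeR). Gmnn (geminin, an inhibitor of origin licensing) was at 5.55 and 3.83 CPM in Ctr and 2.69, 2.07 and 2.22 CPM in DMD. It fell by 1.0 (SE 0.27, adjusted p = 0.0385 by edgeR). Of 42 further mitosis genes, 32 were tested, 7 rose (Wee1, Incenp, Cks2, Espl1, Kif22, Cit and Tacc3) and 0 fell. Tacc3, which stabilises spindle microtubules, was at 0.247 and 0.681 CPM in Ctr and 5.42, 4.08 and 0.828 CPM in DMD, with the same order of DMD muscles as the members. Espl1 (separase, which cuts cohesin at anaphase) had 2 counts in Ctr and 235 in DMD, and Cks2, a subunit bound to cyclin-dependent kinases, had 1 and 87. Fitted without the filter on low counts, the median log2 difference was 0.54 over all 13 transcription control genes, 1.05 over all 33 replication genes and 2.80 over all 42 mitosis genes, against 0.25 over all genes in that fit. With the 5 mitosis genes that had 0 counts in Ctr set at their bound, the mitosis median was 2.7. The summed level of the 42 mitosis genes was not higher in DMD, at 283, 322 and 255 CPM against 347 and 337 CPM in Ctr. Most of that sum came from Pttg1 (securin, which inhibits separase), at 252 and 243 CPM in Ctr and 128, 182 and 177 CPM in DMD, and Bub3, a checkpoint protein, at 72.5 and 70.9 CPM in Ctr and 62.6, 80.5 and 56.1 CPM in DMD. Neither passed the test by edgeR, and both were named after their values were seen.

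Markers of some of the cell types that could divide in these muscles moved between DMD and Ctr. Of all genes tested there, 7.17% were called higher and 5.49% lower. Of 14 macrophage genes 13 rose in DMD against Ctr, and all 14 were above 0 in every muscle. Lyz2 was at 14.7 and 28.01 CPM in Ctr and 269, 287 and 63.2 CPM in DMD. Of 10 regenerating fibre genes 9 rose, with sums of 178 and 163 CPM in Ctr and 370, 1068 and 585 CPM in DMD, and 1 to 3 of them were at 0 in each WT or Ctr muscle. Of 7 satellite cell genes 6 were tested and Pax7 rose. The 7 summed to 30.3 and 32.4 CPM in Ctr and 88.2, 47.99 and 48.3 CPM in DMD. Of 8 fibro-adipogenic progenitor genes 4 rose, with sums of 457 and 500.4 CPM in Ctr and 592, 1036 and 513 CPM in DMD. None of 8 endothelial genes was called, and the 8 lymphocyte genes summed to at most 3.19 CPM in any muscle, with 0 to 4 of them at 0. The 5 granulocyte genes summed to at most 5.24 CPM. Of 3 erythroid genes 2 fell (Alas2 and Hba-a1), with a sum in Ctr replicate 2 of 13662 CPM against 4086 in Ctr replicate 1. None of the 8 fast fibre genes was called. Which cells carried the cell cycle RNAs, and the part of each marker list in the differences above, was not tested.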

How the data were processed

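The deposited tables, 1 per muscle, hold expected counts: per the file headers, the authors counted reads per gene and section with featureCounts 2.0.1 and divided multi-mapped and overlapping reads into fractions. Per the submitters' processing notes, reads were aligned with STAR 2.7.7a to GRCm38. Of the nonzero values over all genes, 22.8% were not whole (tolerance 0.005). Rows were used for the 53083 genes that all 7 tables share. Per the file headers, the WT annotation differed from that of Ctr and DMD.

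Sections were kept with a total of at least 1000 and at least 20% of their muscle's median, summed per muscle and rounded to whole numbers. Whole muscles were tested with edgeR 4.0.16 (R 4.3.3; filterByExpr, TMM factors 0.669 to 1.41, quasi-likelihood F test, 3 groups in 1 fit). Region comparisons used 2 sums per DMD muscle, with the muscle as block and regions of 20% of sections ranked by the mean z-score of log2 (CPM + 10). Their TMM factors came from these sums alone. Adjustment was by Benjamini-Hochberg over all genes tested, with calls at an adjusted p under 0.05. SE is the absolute log2 difference divided by the square root of F. Intervals are exact at 95% and, like floors of 3 counts, cover counting error only. The fits were tested on simulated data. DESeq2 1.42.0, other scalings, filters, thinning and left-out muscles were alternatives.

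The members and gene lists were chosen with earlier results of these data known. Full values are given for members called in DMD against Ctr and, for roles without one, the member with the highest mean. Of other cell cycle lists, at most 4 called genes in each direction, those of largest difference, may be described, and of cell type lists the 2 genes with the highest mean in DMD. Further members were named after their values were seen. 1 gene of the replication list is not reported here, and the list's counts and median were computed without it.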

Additional observations from a re-analysis of the deposited data

How the results depend on the processing

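Depth limits these results: many of the 37 genes had a handful of counts in the WT and Ctr muscles, and p-values come from groups of 2 and 3 muscles. For DMD against Ctr, edgeR called 8 members higher and for DMD against WT 11. Counts stayed within 1.5 times under DESeq2 size factors, without mitochondrial genes, with all sections and with thinned sums. Without the filter on low counts they were 29 and 30, with DESeq2 15 and 17, and when the fit held the 2 groups alone 1 and 6. Those fits called 11.4 and 12.2%, 6.94 and 7.79%, and 5.12 and 13.6% of all genes, in the same order. Leaving out 1 DMD muscle gave 1 to 27 for DMD against Ctr and 1 to 26 for DMD against WT. Those fits called 4.53 to 25.3% and 6.95 to 26.5% of all genes. Fits that leave 1 Ctr or 1 WT muscle are not read here. For Ctr against WT, where 0 members were called, the count higher in Ctr was 2 without the filter (and 2 lower). With only the 2 groups it was 1 (and 1 lower). Those fits called 3.26% and 4.90% of all genes. For macrophage-rich sections, where 3 were called, the count was 17 without the filter and 5 with all sections (1.11% and 0.271% of all genes). It was 9 and 12 with the highest 10% and 33% of sections (0.508% and 1.52%) and 0 with DESeq2 (0.0244%). Without 1 muscle it was 0 to 17 (0.0449 to 1.76%). For regenerating-fibre-rich sections, where 0 were called, it was 4 without the filter (0.280% of all genes) and 0 to 15 without 1 muscle (0.063 to 1.44%). For the middle of the muscle it was 0 under every alternative run, in fits that called 0.00815 to 0.356% of all genes. In DMD against Ctr the log2 difference of Mcm4 ran from -0.12 (without DMD replicate 1) to 0.81 (without DMD replicate 3). That of Hmgb2 ran from -0.19 (without Ctr replicate 2) to 7.04 (without Ctr replicate 1, which leaves 0 Hmgb2 counts in Ctr, so this fitted value is no bound). The cause was not tested, beyond the fewer samples or genes that an alternative leaves.

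The labels' replicate numbers are not said to mark shared animals or days. Deviations of same-numbered muscles correlated at 0.09 and 0.19 between Ctr and DMD and at 0.01 and 0.06 between WT and DMD. With the replicate number as a block, which DMD replicate 3 shares with no other muscle, 29 members were called higher in DMD against Ctr, 29 in DMD against WT and 1 in Ctr against WT. That fit called 27.8%, 28.9% and 6.30% of all genes, against 12.7%, 15.2% and 0.364% without the block.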
